A study of Homo sapiens with 6 samples.

Results

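The 10 genes described here are receptors, ligands, the nuclear effector and targets of the Notch pathway, in a triple-negative breast cancer line in which the transcriptional coactivator YAP1 was knocked down. They are the ligands JAG1, JAG2 and DLL1, the receptors NOTCH1, NOTCH2 and NOTCH3, the DNA-binding protein RBPJ, and the targets HES1, HES4 and HEY1. They were chosen by symbol, and all 10 were found once among the 60612 gene identifiers of the values. RNA of MDA-MB-231 cells, a mesenchymal-like line derived from a human triple-negative breast cancer, was sequenced at day 3. Cells of 3 libraries expressed a control hairpin (Sh-NC, genotype WT) and those of 3 a hairpin against YAP1 (Sh-YAP1, genotype YAP1 knockdown). The study's figure legends describe stable expression of the hairpins, while its methods describe transfection. Neither group received a treatment. The question asked of each gene was whether its mRNA level differed between the Sh-YAP1 and the Sh-NC cells. The labels do not say whether the numbered libraries of a group came from separate cultures or carried the same hairpin sequence, so the p-values measure the spread between these libraries, which may be technical. The values are FPKM, fragments mapped to a transcript scaled by its length and by the size of the library, which takes out length and so allows levels of different genes to be compared. The value of a gene is the sum over its transcripts. The FPKM of a library summed to between 467493 and 475116. No read counts come with the values, so the depth is unknown.

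The targeted gene, YAP1, measured 28.12, 26.24 and 22.87 FPKM in the Sh-NC libraries and 3.35, 2.67 and 2.58 FPKM in the Sh-YAP1 libraries. It fell by 2.79 on the log2 scale (SE 0.12, adjusted p = 0.00180 by limma with Benjamini-Hochberg adjustment over all genes tested). Of 6 markers expressed in this line, 5 were above 100 FPKM in all libraries, with AXL, CAV1 and KRT18 lower in every Sh-YAP1 library than in any Sh-NC library. The 6 summed to 2661 to 3281 FPKM in Sh-NC and 2590.4 to 2874 FPKM in Sh-YAP1. Their part in the results below was not tested. ESR1 and PGR, the hormone receptor genes that triple-negative cells lack, did not exceed 0.07 FPKM. ERBB2 lay between 14.34 and 18.08 FPKM. The 4 luminal epithelial markers summed to 8.74 to 11.5 FPKM in Sh-NC and 7.71 to 10.9 FPKM in Sh-YAP1. Most of this was EPCAM, at 2.43 to 3.27 FPKM, and GATA3, at 4.64 to 7.34 FPKM, whose groups overlapped. CDH1, the epithelial cadherin, was at most at 0.49 FPKM and overlapped too, and FOXA1 was lower in every Sh-YAP1 library. The 4 leukocyte markers were below 1 FPKM in all libraries, with summed levels of 0.32 to 0.50 FPKM with Sh-NC and 0.450 to 0.880 FPKM with Sh-YAP1, and PTPRC, the pan-leukocyte marker, did not exceed 0.04 FPKM. The 4 endothelial markers summed to 0.790 to 1.76 FPKM with Sh-NC and 0.820 to 1.56 FPKM with Sh-YAP1, and the 5 fibroblast markers to 7.71 to 10.1 and 3.81 to 9.79 FPKM. Of the fibroblast markers, COL1A2 was lower in every Sh-YAP1 library, at 0.97 to 1.96 FPKM with Sh-NC and 0.00 to 0.72 FPKM with Sh-YAP1. COL1A1, the highest of them, and the others overlapped.

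Notch signalling passes between neighbouring cells. A ligand of the Jagged or Delta family on one cell binds a Notch receptor on the next, the receptor is cut by an ADAM protease and then by the γ-secretase complex, and its freed intracellular domain enters the nucleus, where it joins RBPJ and a Mastermind coactivator to turn on genes of the HES and HEY families of transcriptional repressors. In breast cancer cells the pathway is studied for its part in growth and in the maintenance of stem-like cells. YAP1 has no DNA-binding domain of its own and acts mainly through the TEAD transcription factors. JAG1 has been described as one of its target genes in other tissues.

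The DNA just before the start sites of these genes was searched for the core letters bound by RBPJ, TGGGAA, and by TEAD factors, GGAATG, on both strands, in the 250 bases before each RefSeq start on GRCh38.p14. RefSeq promoter entries were found for 8 of the 10 genes, with 12 starts in all. DLL1 and HEY1 had no entry. TGGGAA was found at 3 starts, those of HES1 and HES4 and 1 of the 5 starts of RBPJ itself, and 20.8% of all 35116 promoters of the same length hold it. HES1 and that start of RBPJ held it at 2 places, as did 2.9% of all promoters. The longer form GTGGGAA, which contains TGGGAA, was present in HES1, HES4 and RBPJ and in 5.43% of all promoters. GGAATG was found at none of the 12 starts, against 11.9% of all promoters, so neither set of letters stood in the JAG1 window. The sequences below are those of JAG1, the ligand with the highest level, and of the 3 genes with RBPJ letters, with TGGGAA or its reverse complement TTCCCA in capitals. Positions are counted back from the start, with -1 the base before it. The JAG1 sequence is chr20:10674000-10674249 on the minus strand and holds no exon annotated in GENCODE 29. The HES1 sequence, chr3:194135898-194136144 on the plus strand, stops where the annotated first exon begins, and its matches begin at -84 and -70. The HES4 piece is chr1:1000156-1000185 on the minus strand around the match at -76 and reaches into the annotated first exon. The RBPJ pieces, chr4:26319618-26319647 and chr4:26319661-26319690 on the plus strand, hold the matches at -115 and -72, and the latter overlaps annotated exons. A match of letters is a description and not a measured binding site.
JAG1: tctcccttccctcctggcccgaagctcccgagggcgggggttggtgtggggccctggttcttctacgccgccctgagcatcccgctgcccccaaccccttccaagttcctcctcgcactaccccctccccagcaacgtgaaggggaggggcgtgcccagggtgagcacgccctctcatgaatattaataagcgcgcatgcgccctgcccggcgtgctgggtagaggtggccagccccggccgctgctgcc
HES1: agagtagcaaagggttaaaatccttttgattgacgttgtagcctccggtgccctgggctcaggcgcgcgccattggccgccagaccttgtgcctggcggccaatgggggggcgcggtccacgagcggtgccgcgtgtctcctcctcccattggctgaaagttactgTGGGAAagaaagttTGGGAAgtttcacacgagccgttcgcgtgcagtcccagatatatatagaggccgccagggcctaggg
HES4: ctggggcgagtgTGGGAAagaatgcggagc
RBPJ at -115: aggtttaggaaatTTCCCAcggccgtgttg
RBPJ at -72: tagtggaaggcggTGGGAAggaggtgtagc

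By level, the line expressed mainly NOTCH2 among the receptors and JAG1 among the ligands. In the Sh-NC libraries NOTCH2 was highest, at 38.1 ± 2.06 FPKM (SD, n = 3), followed by RBPJ at 23.6 ± 1.84 and JAG1 at 22.5 ± 0.725, whose libraries overlapped each other. HES1 followed at 10.7 ± 0.612 FPKM. NOTCH1 at 3.87 ± 0.476 and JAG2 at 3.20 ± 0.892 FPKM overlapped, as did JAG2 and HES4 at 1.74 ± 0.719, and HES4 and NOTCH3 at 1.05 ± 0.125. HEY1 and DLL1 were lowest, at 0.227 ± 0.0802 and 0.00667 ± 0.0115 FPKM. In the Sh-YAP1 libraries NOTCH2 was again highest, RBPJ and JAG1 again overlapped, and NOTCH1 and JAG2 no longer did.

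Of the summed FPKM of the 3 receptors, NOTCH2 made up 88.6 ± 0.719% in Sh-NC and 88.2 ± 1.08% in Sh-YAP1 (SD, n = 3 each, exact two-sided permutation p = 0.60). NOTCH1 made up 8.97% and 9.15%, and NOTCH3 2.43% and 2.68%. Among the 3 ligands, the share of JAG1 was 84.8%, 90.2% and 88.0% in the Sh-NC libraries and 92.6%, 94.6% and 93.7% in the Sh-YAP1 libraries. The groups did not overlap, as the separate JAG1 and JAG2 values already fix, and the exact permutation p of 0.10 is the smallest that 3 against 3 libraries allow (0.40 after Benjamini-Hochberg adjustment over the 4 shares). These shares do not depend on how the libraries were scaled to each other.

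In the comparison of Sh-YAP1 with Sh-NC, none of the 10 Notch genes passed the test. Differences were tested with limma on log2(FPKM + 1) over the 14770 genes whose mean reached 0.5 FPKM, and a gene was called at a Benjamini-Hochberg adjusted p under 0.05. Of the 10 genes, 8 were tested, and DLL1 and HEY1 lay below the filter. By limma 0 of the 8 were called, against 3.38% of all genes tested (499 genes, of which 259 or 1.75% were higher and 240 or 1.62% lower in Sh-YAP1). At an unadjusted p under 0.05 there were 4 of 8, against 21.9% of all genes (10.8% higher and 11.1% lower). The same 4 genes, JAG1, RBPJ and HES1 with higher and JAG2 with lower values in Sh-YAP1, had groups that did not overlap, as did 29.4% of all genes (14.6% higher and 14.7% lower). The median log2 fold change of the 8 genes was -0.01, beside -0.001 over all genes tested. In a bulk sample, fewer cells expressing a gene and less RNA per cell cannot be told apart.

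**Figure D1:**
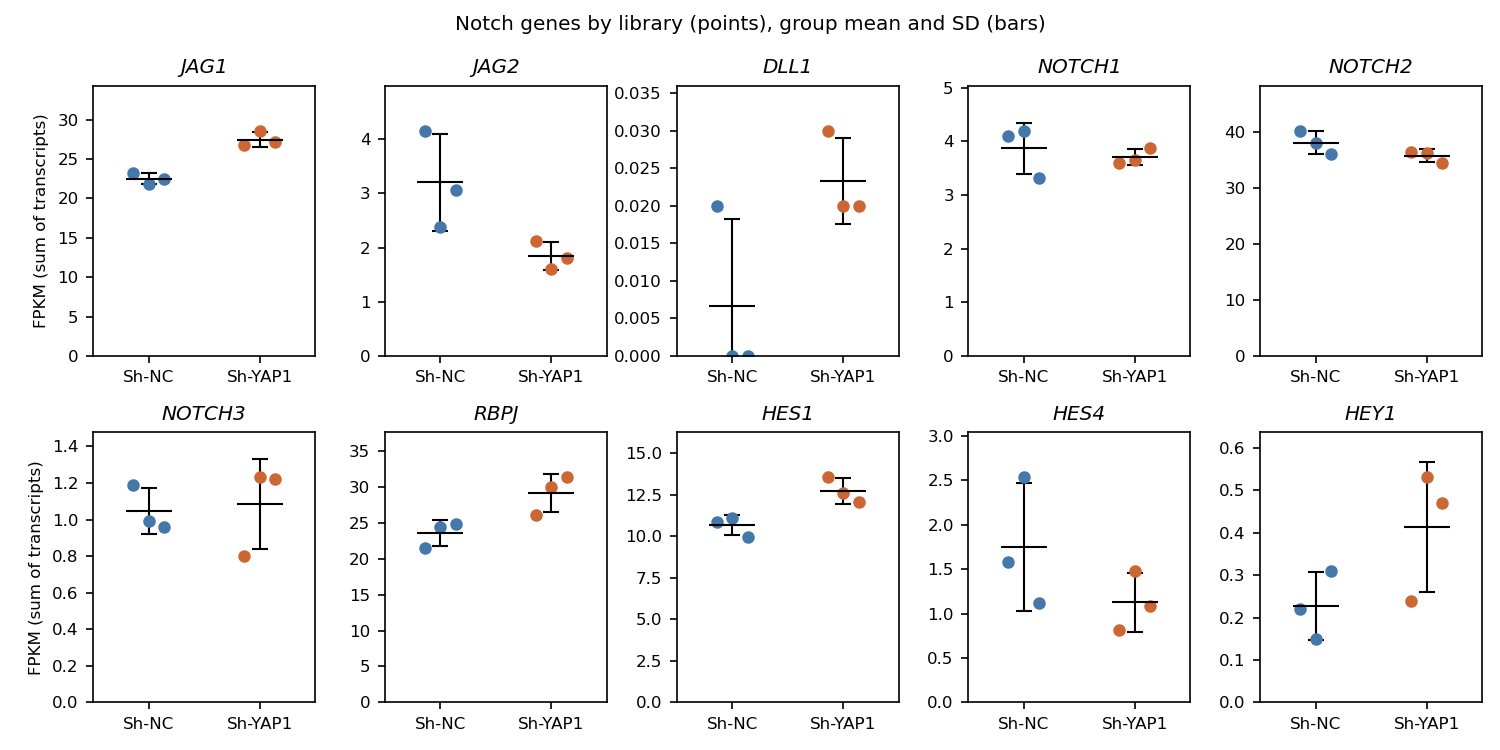
FPKM of the 10 Notch genes in the 3 Sh-NC (blue) and 3 Sh-YAP1 (orange) libraries. Points are libraries, horizontal bars the group means and error bars the SD, and each vertical axis starts at 0 with its own scale. JAG1, RBPJ and HES1 lie higher and JAG2 lower in every Sh-YAP1 library than in any Sh-NC library, and the groups of the other genes overlap or are close to 0.

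Neither of the Jagged ligands passed the test, and their libraries separated with JAG1 higher and JAG2 lower in Sh-YAP1. JAG1 (ENSG00000101384, chr20:10637684-10673999, minus strand, GENCODE 29 on GRCh38) measured 23.24, 21.79 and 22.47 FPKM with Sh-NC and 26.74, 28.57 and 27.15 FPKM with Sh-YAP1. Every Sh-YAP1 library was above every Sh-NC library, and the mean went from 22.5 ± 0.725 to 27.5 ± 0.960 FPKM, a ratio of 1.22. The log2 fold change was 0.28 (SE 0.07, 95% confidence interval 0.12 to 0.44), with an unadjusted p of 0.00501 and an adjusted p of 0.0802 by limma, so JAG1 did not pass the test. Its direction was that of higher values with less YAP1 mRNA. With any 1 library left out, the adjusted p lay between 0.131 and 0.202.

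JAG2 (ENSG00000184916, chr14:105140981-105168824, minus strand), the other Jagged ligand, measured 4.15, 2.38 and 3.07 FPKM with Sh-NC and 2.12, 1.61 and 1.80 FPKM with Sh-YAP1. All Sh-YAP1 libraries were below all Sh-NC libraries, although the lowest Sh-NC and the highest Sh-YAP1 library lay close together. The log2 fold change was -0.55 (SE 0.17, 95% confidence interval -0.95 to -0.14), the widest interval of the 4 genes whose groups did not overlap, and the adjusted p by limma was 0.133. The JAG1 to JAG2 ratio within a library was 5.60, 9.16 and 7.32 in Sh-NC and 12.61, 17.75 and 15.08 in Sh-YAP1, with a mean of 7.36 ± 1.78 against 15.1 ± 2.57 (SD, n = 3 each), which restates the JAG1 and JAG2 values. The microRNA gene MIR6765 lies within JAG2 on the same strand and was listed at 0.05, 0.60 and 0.29 FPKM in Sh-NC and at 0 in all 3 Sh-YAP1 libraries. Its part in the JAG2 values was not tested.

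DLL1, a Delta ligand, was at or close to 0, with 0.02, 0.00 and 0.00 FPKM with Sh-NC and 0.03, 0.02 and 0.02 FPKM with Sh-YAP1. FAM120B, a gene that overlaps it on the opposite strand, lay between 7.33 and 8.23 FPKM. The Delta ligands DLL3 and DLL4 were also below the filter, so the ligand mRNA measured was almost all Jagged. The summed FPKM of JAG1, JAG2 and DLL1 was 25.7 ± 1.63 in Sh-NC and 29.4 ± 0.734 in Sh-YAP1, and consisted mostly of JAG1.

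No difference was detectable in the receptors. NOTCH2 (ENSG00000134250, chr1:119911553-120069626, minus strand), the main receptor of this line by level, measured 40.22, 38.03 and 36.11 FPKM with Sh-NC and 36.51, 36.34 and 34.44 FPKM with Sh-YAP1. The libraries of both groups overlapped, with a log2 fold change of -0.09 (SE 0.07, 95% confidence interval -0.26 to 0.08, adjusted p = 0.510 by limma). The human-specific NOTCH2NL genes are near-identical copies of the 5′ part of NOTCH2, so reads can be divided among them in ways that are uncertain. The 4 of them summed to 21.85, 19.68 and 14.09 FPKM with Sh-NC and 16.90, 18.55 and 14.29 FPKM with Sh-YAP1. NOTCH2 and its copies together came to 56.7 ± 6.0 FPKM with Sh-NC and 52.3 ± 3.22 FPKM with Sh-YAP1 and still overlapped.

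NOTCH1, the receptor best known from T cell leukaemia, measured 4.09, 4.19 and 3.32 FPKM with Sh-NC and 3.59, 3.65 and 3.88 FPKM with Sh-YAP1. All Sh-YAP1 libraries fell within the Sh-NC range, and the 95% confidence interval of the log2 fold change ran from -0.29 to 0.20 (adjusted p = 0.842 by limma). NOTCH3, a receptor known from vascular smooth muscle, measured 1.19, 0.99 and 0.96 FPKM with Sh-NC and 0.80, 1.23 and 1.22 FPKM with Sh-YAP1, with an interval of -0.28 to 0.32 (adjusted p = 0.944). The Sh-YAP1 libraries held both the lowest and the highest NOTCH3 value. NOTCH4 was below the filter. The summed FPKM of NOTCH1, NOTCH2 and NOTCH3 was 43.0 ± 2.56 in Sh-NC and 40.6 ± 0.892 in Sh-YAP1, with overlap (exact permutation p = 0.30). The ratio of the ligand sum to the receptor sum was 0.598 ± 0.0367 in Sh-NC and 0.724 ± 0.0152 in Sh-YAP1, and its difference largely restates that of JAG1.

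RBPJ (ENSG00000168214, chr4:26163455-26435131, plus strand), which carries the Notch intracellular domain to DNA and represses the same genes in its absence, measured 21.45, 24.44 and 24.81 FPKM with Sh-NC and 26.12, 29.91 and 31.30 FPKM with Sh-YAP1. The groups did not overlap, with a gap smaller than the SD of either group, and the mean went from 23.6 ± 1.84 to 29.1 ± 2.68 FPKM, a ratio of 1.24. The log2 fold change was 0.29 (SE 0.10, 95% confidence interval 0.06 to 0.53, unadjusted p = 0.0218, adjusted p = 0.154 by limma). The 4 RBPJ pseudogenes listed did not exceed 0.03 FPKM and the paralog RBPJL was listed at 0.

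Of the 3 targets, HES1 (ENSG00000114315, chr3:194136145-194138732, plus strand), a repressor that also oscillates in many cell types, was the only one above 3 FPKM. It measured 10.89, 11.13 and 9.97 FPKM with Sh-NC and 13.54, 12.59 and 12.05 FPKM with Sh-YAP1. All Sh-YAP1 libraries were higher, with means of 10.7 ± 0.612 and 12.7 ± 0.754 FPKM and a ratio of 1.19. The log2 fold change was 0.23 (SE 0.08, 95% confidence interval 0.04 to 0.43, unadjusted p = 0.0260, adjusted p = 0.167 by limma).

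HES4, a relative of HES1 in humans, measured 1.58, 2.53 and 1.12 FPKM with Sh-NC and 0.82, 1.48 and 1.08 FPKM with Sh-YAP1. Both groups overlapped, and for the log2 fold change of -0.35 limma gave an interval of -0.86 to 0.17 (adjusted p = 0.395). It was -0.15 without Sh-NC 2, the highest library, -0.52 without Sh-NC 3 and -0.59 with a pseudocount of 0.01. HEY1, a target known from blood vessels and the heart, was below the filter, with 0.22, 0.15 and 0.31 FPKM with Sh-NC and 0.24, 0.53 and 0.47 FPKM with Sh-YAP1, and was not tested. None of the 3 targets passed the test, and both genes at low level varied by more within a group, relative to their means, than HES1 did. HES1, HES4 and RBPJ are the genes with TGGGAA in the windows printed above.

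**Figure D2:**
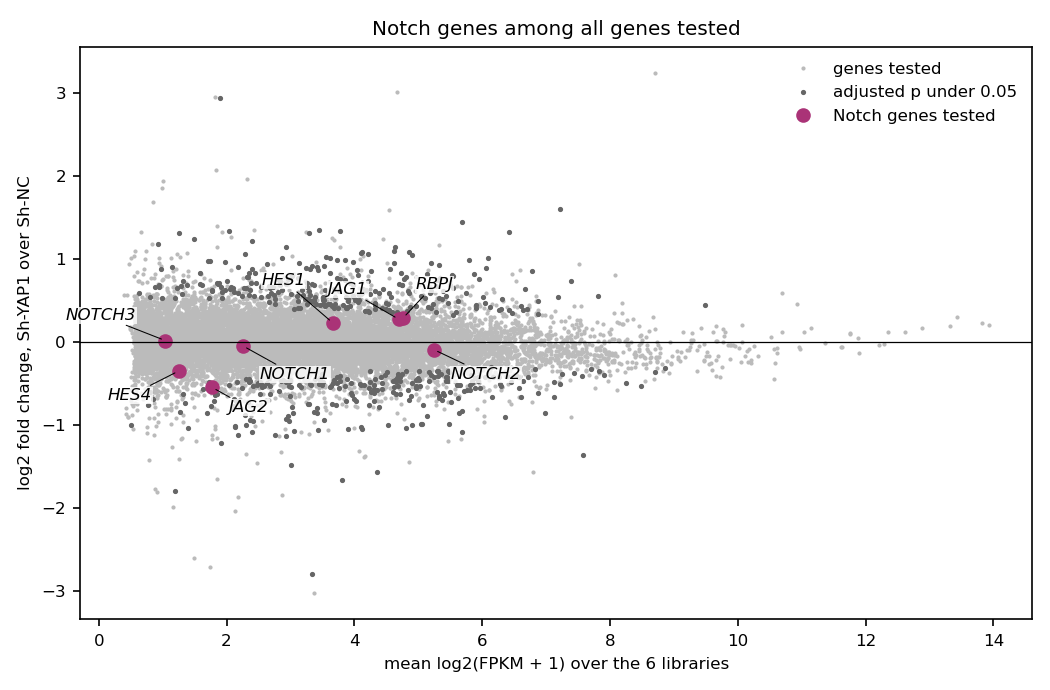
Log2 fold change (Sh-YAP1 over Sh-NC) against the mean log2(FPKM + 1) over the 6 libraries for all 14770 genes tested. Grey points are genes, darker points those with an adjusted p under 0.05 by limma, and purple points the 8 Notch genes tested, which lie between -0.55 (JAG2) and 0.29 (RBPJ), none with an adjusted p under 0.05.

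The values were also given per transcript, and the gene totals were divided accordingly. The 10 genes had 92 transcripts, of which 43 passed a mean of 0.1 FPKM. By limma 0 of the 43 were called, against 0.0515% of the 77655 transcripts tested, and 3 had an unadjusted p under 0.05 (6.12% of all), 2 of JAG1 and 1 of JAG2. In JAG1 a single transcript carried 84.6% of the gene. It measured 18.44, 19.09 and 18.09 FPKM with Sh-NC and 23.70, 23.21 and 24.29 FPKM with Sh-YAP1, without overlap (log2 fold change 0.34, SE 0.11, unadjusted p = 0.0224, adjusted p = 0.719). The other JAG1 transcripts together came to 3.96 ± 1.11 and 3.75 ± 1.39 FPKM. Without the main transcript the JAG1 log2 fold change was -0.07, so the higher JAG1 total lay in that transcript.

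HES1 was likewise almost a single transcript, with 96.7% of the gene in 1 row at 10.49, 10.90 and 9.50 FPKM with Sh-NC and 13.02, 12.11 and 11.82 FPKM with Sh-YAP1. In NOTCH2 the main transcript held 95%. JAG2 had no steady main transcript, and the share of the one with the highest mean ran from 15.0% to 96.3% between libraries. The JAG2 transcript with the largest difference measured 1.76, 0.54 and 1.85 FPKM with Sh-NC and 0.75, 0.00 and 0.06 FPKM with Sh-YAP1, and its groups overlapped.

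RBPJ was divided among 31 transcripts, and Sh-NC 1 stood apart. The RBPJ transcript with the highest mean was listed at 0.07 FPKM in Sh-NC 1 but at 14.94 and 13.99 FPKM in the other Sh-NC libraries, and at 9.36, 21.27 and 17.37 FPKM in Sh-YAP1. The next transcript showed the opposite, with 13.28, 2.44 and 3.22 FPKM with Sh-NC and 3.52, 2.00 and 1.37 FPKM with Sh-YAP1. The sum of the pair was 13.35, 17.38 and 17.21 FPKM with Sh-NC and 12.88, 23.27 and 18.74 FPKM with Sh-YAP1 and overlapped, so the separation of the RBPJ totals did not lie in this pair alone. Without the transcript of the highest mean the RBPJ log2 fold change was -0.04.

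**Figure D3:**
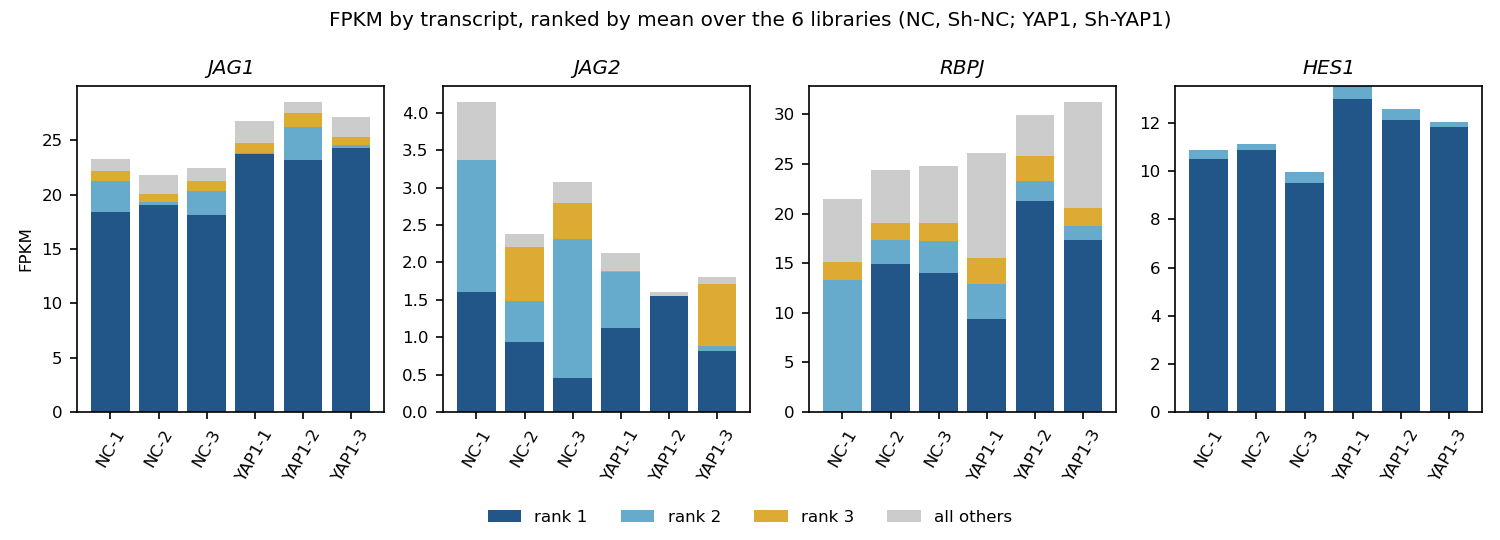
Stacked bars of FPKM per library for JAG1, JAG2, RBPJ and HES1, divided into the transcripts of the 3 highest means over the 6 libraries (rank 1 to 3) and all others, with axes from 0. JAG1 and HES1 consist mostly of 1 transcript that is higher in Sh-YAP1, while the division of JAG2 and RBPJ changes between libraries of the same group.

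The other parts of the pathway were read from a list of 72 genes by role, the 10 Notch genes included, 58 of which were tested. Among the 62 other genes, 50 were tested and 5 were called by limma (10%, against 3.38% of all genes tested), 3 higher and 2 lower in Sh-YAP1. With any 1 library left out, 0 to 1 gene of the pathway list was called, and the calls over all genes went from 499 to between 78 and 171. Over the whole list the median log2 fold change was 0.02, 24 of 58 genes (41.4%, against 21.9% of all genes tested) had an unadjusted p under 0.05, and 27 (46.6%, against 29.4%) had groups that did not overlap, 15 higher and 12 lower. The called genes belonged to different roles.

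NUMB, an endocytic adaptor that antagonises Notch receptors, rose from 22.58, 23.26 and 21.88 FPKM in Sh-NC to 36.03, 35.14 and 32.77 FPKM in Sh-YAP1. All Sh-YAP1 libraries were well above all Sh-NC libraries, with a log2 fold change of 0.60 (SE 0.07, adjusted p = 0.0135 by limma). The call was lost without Sh-NC 1 (adjusted p = 0.0628), Sh-NC 2 (0.0531), Sh-YAP1 1 (0.050) or Sh-YAP1 2 (0.0628), with log2 fold changes of 0.57 to 0.62. NUMBL, its paralog, measured 6.60, 5.53 and 6.80 FPKM with Sh-NC and 4.14, 4.79 and 4.64 FPKM with Sh-YAP1, with a log2 fold change of -0.40 and an adjusted p of 0.0922. DTX2, a Deltex ubiquitin ligase, measured 13.68, 14.80 and 13.41 FPKM with Sh-NC and 9.39, 9.24 and 5.99 FPKM with Sh-YAP1 (log2 fold change -0.72, adjusted p = 0.0688).

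CCND1, the cell cycle gene cyclin D1 and a described target of Notch among many other inputs, fell from 279.19, 275.79 and 272.14 FPKM in Sh-NC to 204.92, 209.12 and 213.39 FPKM in Sh-YAP1. The groups were far apart for their spread (276 ± 3.53 and 209 ± 4.24 FPKM), and the log2 fold change was -0.40 (SE 0.06, adjusted p = 0.0230 by limma). Without any 1 of the 6 libraries the adjusted p was 0.0525 to 0.0917. CCND1 was 1 of 6 tested target genes outside the Notch genes above. Of the others, HES2 and HES7, both of low level, had lower values in all Sh-YAP1 libraries without passing the test. The groups of HES6, NRARP and MYC overlapped. With CCND1, 3 of the 6 thus had lower values in all Sh-YAP1 libraries, against 14.7% of all genes tested. HES2 and HES7 were picked out after their values were seen. HES2 measured 1.12 ± 0.287 and 0.380 ± 0.156 FPKM and HES7 1.06 ± 0.0569 and 0.430 ± 0.265 FPKM, in Sh-NC and Sh-YAP1 (adjusted p = 0.0787 and 0.113 by limma).

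In the receptor cleavage group, all 9 genes were tested and 1 was called, against 3.38% of all genes tested. PSEN2, a catalytic subunit of γ-secretase, fell from 12.46, 11.51 and 11.60 FPKM to 9.14, 8.69 and 8.66 FPKM (log2 fold change -0.39, SE 0.07, adjusted p = 0.0463 by limma). The other cleavage genes with an unadjusted p under 0.05 numbered 5, ADAM17, NCSTN and APH1B with higher and APH1A and PSENEN with lower values in Sh-YAP1, none of them called, and 21.9% of all genes reached that p. Without any 1 of the 6 libraries the adjusted p of PSEN2 was 0.0927 to 0.145, and it was 0.0548 with no trend and 0.0731 with no filter.

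Among the nuclear cofactors, KAT2B, a histone acetyltransferase of the activating complex, rose from 9.84, 9.86 and 10.47 FPKM to 14.78, 13.49 and 13.07 FPKM (log2 fold change 0.42, SE 0.08, adjusted p = 0.0457 by limma). CIR1, a corepressor that binds RBPJ, rose from 7.47, 7.00 and 8.63 FPKM to 11.77, 10.51 and 11.80 FPKM (log2 fold change 0.51, SE 0.10, adjusted p = 0.0497). Both were thus just under the threshold. KAT2A, the paralog of KAT2B, had lower values in all Sh-YAP1 libraries, with 23.9 ± 2.40 FPKM in Sh-NC against 18.1 ± 0.608 FPKM in Sh-YAP1, and did not pass the test (log2 fold change -0.38, adjusted p = 0.0771). It was picked after its values were seen. Without any 1 of the 6 libraries the adjusted p of the called genes was 0.0893 to 0.143 for KAT2B and 0.0637 to 0.149 for CIR1. Neither passed under quantile normalization, median centring, no trend or no filter, with adjusted p of 0.0510 to 0.0746 for KAT2B and 0.0555 to 0.0937 for CIR1. CTBP2, another corepressor, measured 29.75, 20.19 and 29.95 FPKM with Sh-NC and 16.47, 14.33 and 16.28 FPKM with Sh-YAP1 (log2 fold change -0.71, adjusted p = 0.0698). Of 15 alternatives it passed the test only when Sh-NC 2, its lowest Sh-NC library, was left out (log2 fold change -0.89, adjusted p = 0.0438).

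None of the 5 genes of receptor glycosylation and none of the 3 genes of ligand endocytosis that were tested was called by limma, against 3.38% of all genes tested. Each group had 1 gene with an unadjusted p under 0.05 (21.9% of all genes), MFNG and NEURL1B, both with higher values in Sh-YAP1. LFNG, the main Fringe enzyme here by level, which alters the response of receptors to Jagged and Delta ligands, was at 16.0 ± 1.75 FPKM with Sh-NC and 16.8 ± 0.961 FPKM with Sh-YAP1 (adjusted p = 0.713). The Mastermind genes MAML1, MAML2 and MAML3, the coactivators that join RBPJ, were not called either by limma (adjusted p = 0.444, 0.282 and 0.280). MAML2 (4.24 ± 0.398 and 5.06 ± 0.448 FPKM) and MAML3 (2.32 ± 0.161 and 2.77 ± 0.0451 FPKM) had higher values in all Sh-YAP1 libraries. Of all genes tested, 14.6% did so. The groups of MAML1 overlapped. Besides DLL1 and HEY1, the pathway genes below the filter were DLL3, DLL4, NOTCH4, NEURL1, TLE4, FHL1, DTX1, DTX3, DTX4, HES5, HEY2 and HEYL.

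**Figure D4:**
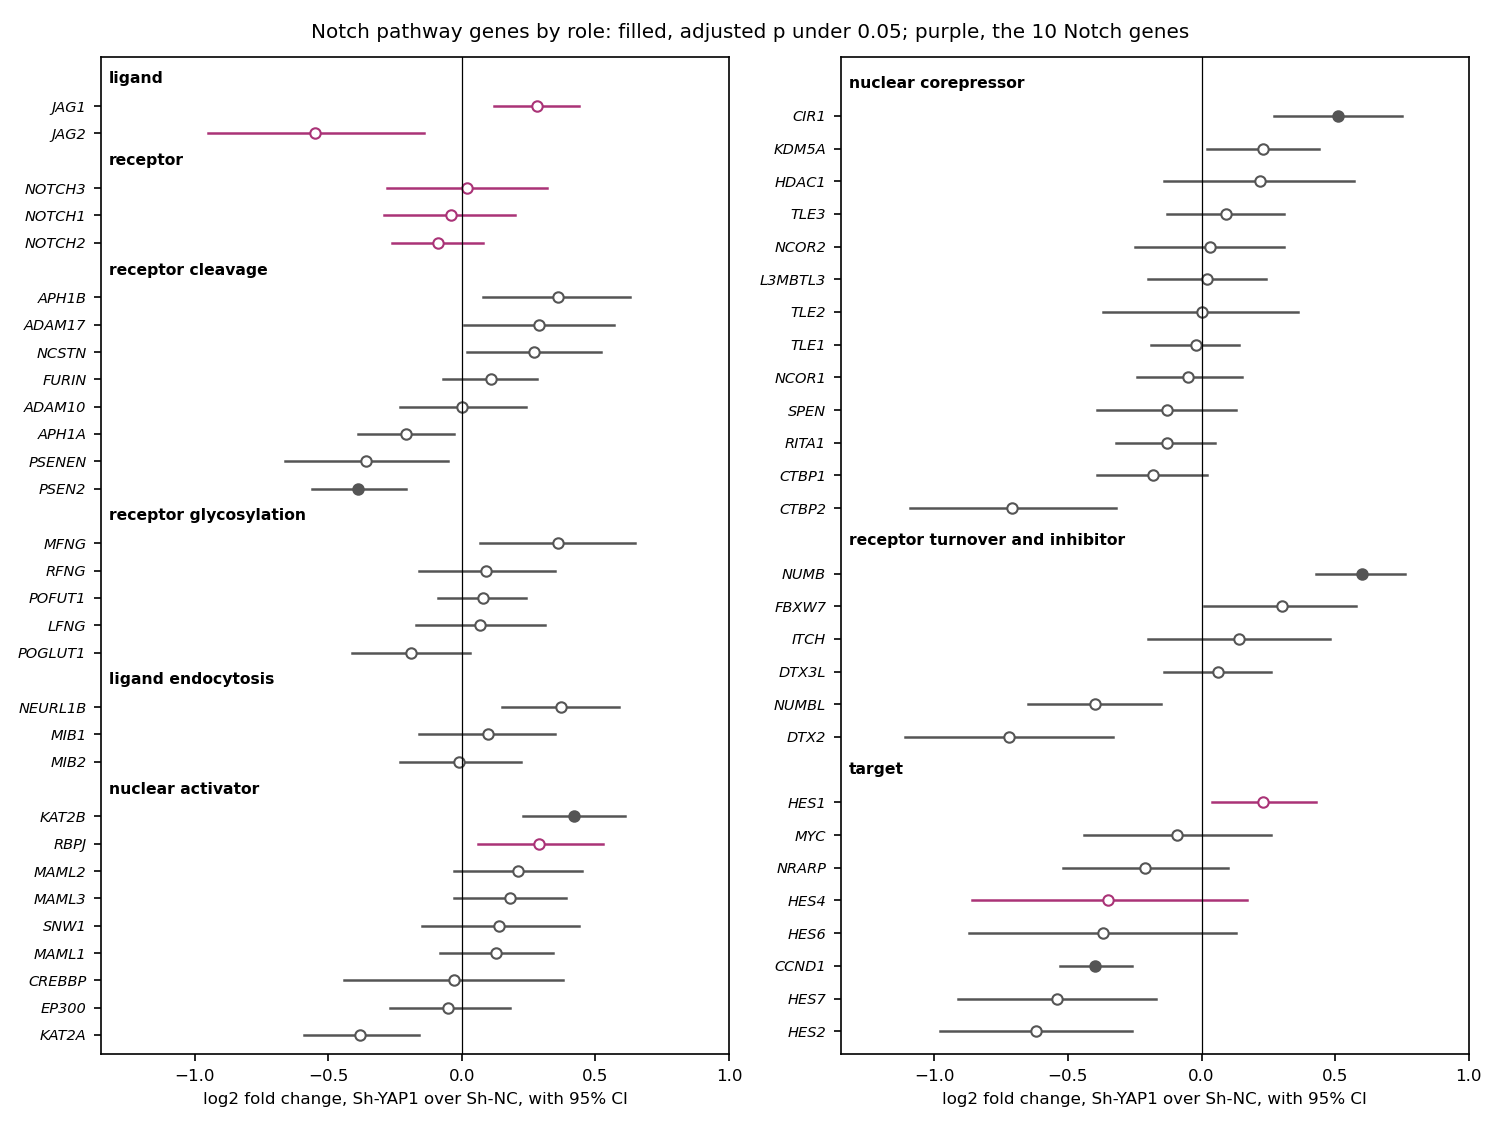
Log2 fold change (Sh-YAP1 over Sh-NC) with its 95% confidence interval by limma for the tested genes of the pathway list, by role, with 1 gene not shown. Purple marks the Notch genes, all open because none passed the test, and filled points mark NUMB, KAT2B and CIR1, which rose, and PSEN2 and CCND1, which fell.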

How the data were processed

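RNA-sequencing values of 6 libraries, 3 Sh-NC and 3 Sh-YAP1, were used. The authors deposited FPKM values, 1 per transcript and library with 2 decimals and a gene identifier, for 229420 transcripts in each library. The submitters' processing notes name HISAT2 2.0, Bowtie 0.12.2 and hg19 without their roles. The counting tool, annotation and strand setting are not given in the sources used here. Since the values carry no coordinates, gene positions are those of GENCODE 29 (GRCh38), in which 58394 of the 60612 identifiers were found. Symbols were paired with 60401 identifiers. Depth is unknown, so no interval for counting error was computed, and errors come from the spread between libraries.

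Transcript values were summed by gene identifier. Genes whose mean reached 0.5 FPKM (transcripts, 0.1) were tested on log2(FPKM + 1) with limma 3.58.1 in R 4.3.3 (lmFit and eBayes with a trend, Benjamini-Hochberg adjustment over all features tested). A fold change on this scale understates the change of low genes. Ratios, sums and shares were tested by exact two-sided permutation over libraries in scipy 1.17.1. The smallest p this allows with 3 against 3 is 0.1. The fit was run on simulated data as a check of the code. How often it recovers changes as small as those of JAG1, RBPJ and HES1 is not given here. Groups came from the sample titles. Beside the 10 Notch genes and YAP1, the pathway genes named were those with an adjusted p under 0.05, then, in a direction with fewer than 3 calls, up to 3 with the largest change among those with no overlap and a mean over all libraries of at least 1 FPKM, and genes below the filter. Genes picked otherwise are said to be so, or serve as a comparison by role. The Notch genes, the pathway list and the tests were chosen with earlier results of these data known. Alternatives changed the pseudocount, scaling, trend, filter, replicate block, libraries and transcripts used. Those for the named pathway genes were chosen after seeing the data. The values of 1 gene of the pathway list are not reported here.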

Additional observations from a re-analysis of the deposited data

How the results depend on the processing

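None of the 8 Notch genes tested was called by limma under any of the 15 alternatives, and YAP1 was called in all of them. Of all genes, 499 were called, against 232 with no filter and 78 to 171 with 1 library left out. Of the pathway list, 5 genes were called, against 3 after quantile normalization, 3 after median centring, 2 with no trend, 2 with no filter and 0 to 1 with 1 library left out. The replicate numbers did not pair the libraries, since the deviations of libraries with the same number correlated at -0.0285, 0.0621 and 0.0042. With the replicate block, 1 gene was called of all genes and 0 of the pathway list. The log2 fold change took the other sign without the transcript of the highest mean for JAG1 (-0.07), RBPJ (-0.04) and NOTCH1 (0.24), and moved to -0.45 for NOTCH2 and -0.96 for JAG2, none of them called, and the cause was not tested. With 1 library left out it ran from -0.13 to 0.00 for NOTCH1 and from -0.03 to 0.12 for NOTCH3, and for NOTCH3 it was -0.01 after quantile normalization. Over the alternatives the adjusted p ran from 0.0724 to 0.970 for JAG1, 0.117 to 0.674 for JAG2, 0.133 to 0.988 for RBPJ and 0.152 to 0.316 for HES1. JAG2 moved between -0.69 and -0.39 with 1 library left out. With depth unknown, how far low levels such as those of HEY1 and DLL1 are limited by counting cannot be given.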
